A study of Mus musculus with 9 samples.

Results

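The genes described here are the ligands and receptors of the VEGF and angiopoietin pathways: the ligand genes Vegfa, Vegfb, Vegfc and Pgf with the receptor genes Flt1 and Kdr, and the ligand genes Angpt1 and Angpt2 with the receptor gene Tek. They were taken by name, and all 9 were measured, each by 1 probe set with a single gene symbol, out of 19935 genes on the array. The cells were NIH 3T3, a mouse embryo fibroblast line, and their total RNA was read on 9 arrays of the type Affymetrix Mouse Gene 1.0 ST. Control cells stably carried the lentiviral vector pLKO.1, NetKD cells an shRNA against Net (gene Elk3) and SapKD cells an shRNA against Sap-1 (gene Elk4), with 3 biological replicates of each group. In all 3 groups cells were plated on fibronectin for 2 hours, starved of serum overnight and given bovine serum for 1 hour, so no array shows cells without serum. The serum is 10% in the sample protocols and 20% in the series description. The labels do not say whether a group is 1 transduced line or several, and p then covers the spread between the arrays of these lines only.

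VEGF proteins are secreted dimers that act through receptor tyrosine kinases, and they drive the growth and the permeability of blood and lymph vessels. Fibroblasts and other stromal cells are a common source of VEGF-A, while the receptors are best known from endothelial cells. Angiopoietins form a separate pathway: angiopoietin-1 activates the receptor Tie2, the product of Tek, and stabilises vessels, and angiopoietin-2 mostly opposes it. Net and Sap-1 are ternary complex factors, ETS proteins that bind DNA beside serum response factor, and Net has been studied as a regulator of Vegfa transcription. ETS proteins recognise a GGAA core.

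Values are log2 levels after RMA, the authors' normalization of the arrays, and a difference of 1 means a doubling. Array medians lay between 7.47 and 7.54. Elk3 stood at 11.51 ± 0.02 in control (SD, n = 3 arrays in each group), 11.08 ± 0.02 in NetKD and 11.38 ± 0.01 in SapKD cells. Elk4 stood at 11.07 ± 0.05, 10.63 ± 0.04 and 9.53 ± 0.02, so the NetKD arrays were low in both messages. Both Elk3 and Elk4 were called lower in both lines (limma adjusted p at most 0.0227). Elk3 and Elk4 were at 74.5% and 73.6% of control in NetKD cells, and at 91.8% and 34.5% in SapKD cells. The NetKD differences therefore cannot be assigned to Net alone, and which factor they belong to was not tested. The call of Elk3 in SapKD cells was lost with each array centred on its median (-0.11, adjusted p = 0.0591) and without control replicate 2, control replicate 3 or SapKD replicate 1 (-0.12 each, adjusted p = 0.0636 to 0.0706). Fibroblast markers averaged 12.88 to 12.92 on the control arrays, and the 14 endothelial markers read had control means of 5.73 (Emcn) to 7.93 (Egfl7). Levels of different probe sets cannot be set against each other, and the table holds no detection calls, so these values do not show which of the genes were expressed.

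**Figure D1:**
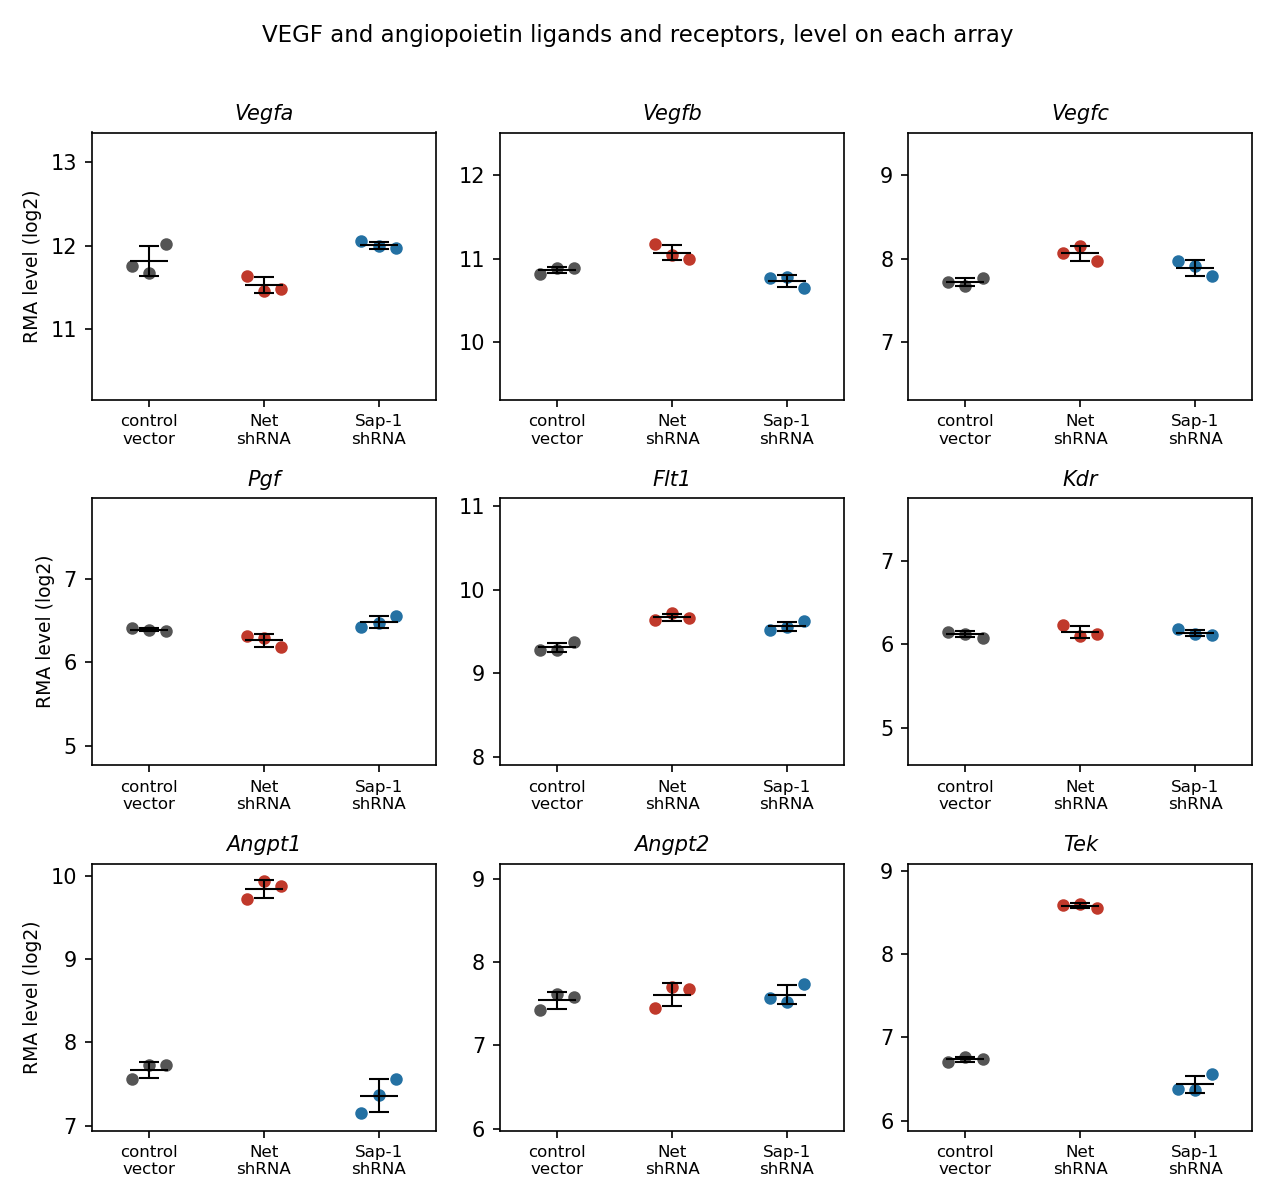
RMA level (log2) of each of the 9 genes on each array, with points for single arrays (3 per group), the group mean as a horizontal line and its SD as the error bar; every vertical axis spans the same log2 range but is placed at the level of its gene, and levels of different genes cannot be compared. Angpt1 and Tek stand far above control on all NetKD arrays, at 9.84 and 8.58 against 7.67 and 6.74. For each of the other genes the groups lie closer together, in some cases without overlap.

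The angiopoietin pathway held the largest differences. Angpt1 mRNA was 4.49-fold and Tek mRNA 3.58-fold of control in NetKD cells, while Angpt2 did not pass the test. In SapKD cells both Angpt1 and Tek were slightly lower than control. Without detection calls it is unknown how far the control level of Tek lies above background, so its fold and its rank describe the RMA levels. The NetKD and SapKD arrays share the same 3 control arrays, so the values of both lines are given side by side.

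Angpt1, the gene of the Tie2 agonist, read 7.56, 7.73 and 7.73 on the control arrays, 9.72, 9.93 and 9.87 on the NetKD arrays and 7.16, 7.37 and 7.56 on the SapKD arrays. All NetKD arrays lay above all others, and the highest SapKD array reached the lowest control array. The difference between NetKD and control was 2.17 (SE 0.09, 95% interval 1.96 to 2.37, limma adjusted p = 5.69e-08). By size it ranked 23 of 19935 genes. In SapKD cells the difference was -0.31 (SE 0.09, interval -0.51 to -0.10, adjusted p = 0.0285), or 80.8% of the control level. That smaller call did not hold in 6 of 19 alternative settings: without control replicate 2 or 3 (-0.28 each), without SapKD replicate 1 (-0.21) or 2 (-0.31), with only the 6 arrays compared (-0.31) and after quantile normalization (-0.29), at adjusted p = 0.0515 to 0.104.

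Tek, the gene of the receptor Tie2, read 6.71, 6.77 and 6.74 in control, 8.59, 8.60 and 8.55 in NetKD and 6.38, 6.37 and 6.56 in SapKD cells. The 3 groups did not overlap, with NetKD highest and SapKD lowest. Tek rose by 1.84 in NetKD cells (SE 0.05, interval 1.72 to 1.96, limma adjusted p = 2.68e-09), rank 37 of 19935 by size. It fell by 0.30 in SapKD cells (SE 0.05, adjusted p = 0.00122), to 81.2% of control. Both calls of Tek were kept in each of the 18 settings tried for it.

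Angpt2, the gene of the context-dependent antagonist, read 7.42, 7.62 and 7.58 in control, 7.45, 7.70 and 7.68 in NetKD and 7.57, 7.52 and 7.74 in SapKD cells. The groups overlapped, and the order of the means, 7.54, 7.61 and 7.61, does not separate them. Its difference from control was 0.07 in both lines (NetKD interval -0.11 to 0.25, adjusted p = 0.638, and SapKD adjusted p = 0.564). The Angpt1 level relative to Angpt2 on the same array was therefore 2.10 ± 0.04 higher in NetKD than the control mean (SD, n = 3) and 0.38 ± 0.14 lower in log2 units in SapKD cells, a description for which no test was run.

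The VEGF ligand genes moved much less, and not in 1 direction. In NetKD cells Vegfa was lower while Vegfb and Vegfc were higher, and Pgf did not pass. In SapKD cells Vegfc was called higher, at the edge of the threshold, and the other ligand genes did not pass.

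Vegfa, the main angiogenic ligand, read 11.75, 11.67 and 12.02 in control, 11.64, 11.46 and 11.48 in NetKD and 12.05, 11.99 and 11.97 in SapKD cells. Control replicate 3 lay within the range of the SapKD arrays, and no NetKD array reached the lowest control array. Vegfa was at 82.0% of control in NetKD cells, a difference of -0.29 (SE 0.08, interval -0.47 to -0.10, limma adjusted p = 0.0271). The call was lost without control replicate 3 (-0.18, adjusted p = 0.0714), without NetKD replicate 2 (-0.25, adjusted p = 0.1) or 3 (-0.26, adjusted p = 0.0914) and with only the 6 arrays compared (-0.29, adjusted p = 0.0763). In SapKD cells the difference was 0.19 (SE 0.08, adjusted p = 0.116), and it passed without control replicate 3 (0.29, adjusted p = 0.0065). Probe sets of this array cover the whole gene, so the splice forms of Vegfa were not told apart.

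Vegfb, a ligand of the receptor VEGFR1, read 10.82, 10.89 and 10.89 in control, 11.18, 11.05 and 11 in NetKD and 10.77, 10.78 and 10.65 in SapKD cells. The 3 groups did not overlap, in the order NetKD, control, SapKD. Vegfb rose by 0.21 in NetKD cells (SE 0.05, limma adjusted p = 0.0155), a call lost without control replicate 1 (0.19, adjusted p = 0.0624). In SapKD cells the difference was -0.13 (adjusted p = 0.0966), which passed only without NetKD replicate 1 (-0.13, adjusted p = 0.0494).

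Vegfc, best known for the growth of lymphatic vessels, read 7.72, 7.67 and 7.77 in control, 8.07, 8.16 and 7.98 in NetKD and 7.97, 7.92 and 7.79 in SapKD cells. The groups were ordered NetKD, SapKD, control without overlap. Vegfc rose by 0.35 in NetKD cells (SE 0.06, limma adjusted p = 0.0014) and by 0.17 in SapKD cells (SE 0.06, adjusted p = 0.0499). The genes around Vegfc on its chromosome were higher as well. The median of its 50 nearest neighbours above the median gene level was up by 0.42 in NetKD and by 0.19 in SapKD cells. With the neighbours' median taken off, Vegfc stood at -0.08 (adjusted p = 0.472) and -0.02 (adjusted p = 0.873). The SapKD call was also lost with an intensity trend and robust variances together (0.17, adjusted p = 0.057) and with any of 6 arrays left out, namely each control replicate, NetKD replicate 1 and SapKD replicates 1 and 2 (0.13 to 0.20, adjusted p = 0.0594 to 0.17).

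Pgf, the gene of placental growth factor and another VEGFR1 ligand, read 6.41, 6.39 and 6.38 in control, 6.32, 6.29 and 6.18 in NetKD and 6.42, 6.47 and 6.56 in SapKD cells. The groups did not overlap, but the differences from control were small, at -0.13 in NetKD (limma adjusted p = 0.0916) and 0.09 in SapKD cells (adjusted p = 0.251). With array weights the NetKD difference passed (-0.16, adjusted p = 0.0195).

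Flt1, the gene of VEGFR1, was the VEGF receptor gene that differed. It read 9.28, 9.28 and 9.37 in control, 9.64, 9.72 and 9.66 in NetKD and 9.52, 9.55 and 9.62 in SapKD cells. Both lines lay above control with no overlap. Flt1 rose by 0.36 in NetKD cells, to 129% of control (SE 0.04, limma adjusted p = 0.000153), and by 0.25 in SapKD cells, to 119% (SE 0.04, adjusted p = 0.0012). Flt1 also yields a soluble form that binds VEGF without signalling, and the probe set does not separate it from the membrane receptor. In SapKD cells the neighbours of Flt1 were up by 0.17, and with their median taken off Flt1 stood at 0.08 (adjusted p = 0.126). In NetKD cells the neighbours were at 0.01.

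Kdr, the gene of VEGFR2, the principal signalling receptor for VEGF-A, read 6.15, 6.13 and 6.08 in control, 6.23, 6.10 and 6.12 in NetKD and 6.18, 6.12 and 6.11 in SapKD cells. The groups overlapped throughout. The differences from control were 0.03 (interval -0.07 to 0.13, limma adjusted p = 0.739) and 0.02 (adjusted p = 0.825). The neighbours of Kdr were lower in both lines, by 0.23 and 0.19 in log2 units, and with their median taken off Kdr was called higher, at 0.26 (adjusted p = 0.00733) and 0.20 (adjusted p = 0.0189). The table holds no detection calls, so it does not say whether so dim a signal is above background.

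**Figure D2:**
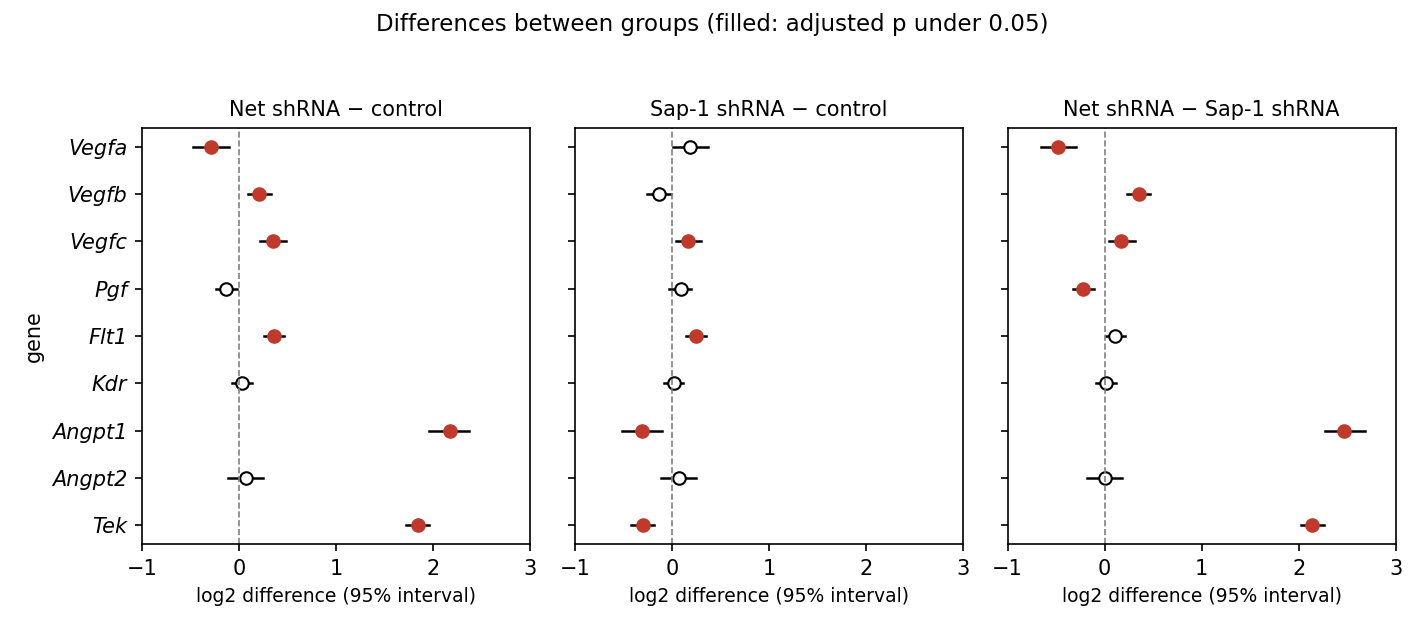
Differences in log2 level between groups for the 9 genes, with the 95% interval of the limma fit as a line and filled points where adjusted p was under 0.05. Angpt1 and Tek lie at 2.17 and 1.84 in NetKD against control, and every other difference from control lies between -0.31 and 0.36.

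Counted together, 6 of the 9 genes were called in NetKD cells, 5 higher and 1 lower, where 23.6% of all genes tested were called, 13.4% higher and 10.2% lower. For 7 of the 9 no NetKD array fell within the control range or the reverse, against 34.3% of all genes. Angpt1 and Tek, 2 of the 9, were both called and 2-fold or more from control, against 0.898% of all genes. In SapKD cells 4 of the 9 were called, 2 higher and 2 lower, where 29.7% of all genes were called, 15.8% higher and 13.9% lower. That count fell to 2 without control replicate 2, SapKD replicate 1 or SapKD replicate 2. For 5 of the 9 the SapKD and control arrays were fully apart, against 41% of all genes, and 0 reached a called 2-fold change, against 1.54%. The median difference of the 9 genes was 0.21 in NetKD and 0.07 in SapKD cells, beside 0 and -0.02 for all genes. The genes were proposed with earlier results on these arrays known, so these counts describe them and are no independent evidence.

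The direct comparison of both knockdown lines asks where they differ from each other. Angpt1 was 5.56-fold and Tek 4.41-fold higher in NetKD than in SapKD cells, differences of 2.47 (SE 0.09, limma adjusted p = 7.53e-09) and 2.14 (SE 0.05, adjusted p = 2.97e-10). Vegfa was lower in NetKD cells, at 71.9% of the SapKD level (-0.48, SE 0.08, adjusted p = 0.0011), and so was Pgf (-0.22, SE 0.05, adjusted p = 0.00723). Vegfb was higher by 0.35 (SE 0.05, adjusted p = 0.000599). These 5 calls were kept in every setting tried for them. Vegfc passed at 0.17 (adjusted p = 0.0497), a call lost in 14 of 19 settings (-0.06 to 0.19), all 3 other normalizations among them. It was lost with control replicates 1, 2 or 3, NetKD replicate 1 or 2, or SapKD replicate 2 or 3 left out. Flt1 did not pass (0.11, adjusted p = 0.0965), but did with its neighbours' median taken off (0.27, adjusted p = 0.000348), after quantile normalization (0.11, adjusted p = 0.0417) and with array weights (0.12, adjusted p = 0.0305). Kdr (0.01) and Angpt2 (0.00) did not pass. In all, 6 of the 9 were called, 4 higher and 2 lower, where 27.5% of all genes were called, 14.2% higher and 13.3% lower. The lines were fully apart for 7 of the 9, against 37.4% of all genes, and 2 of the 9 reached a called 2-fold change, against 1.8%.

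**Figure D3:**
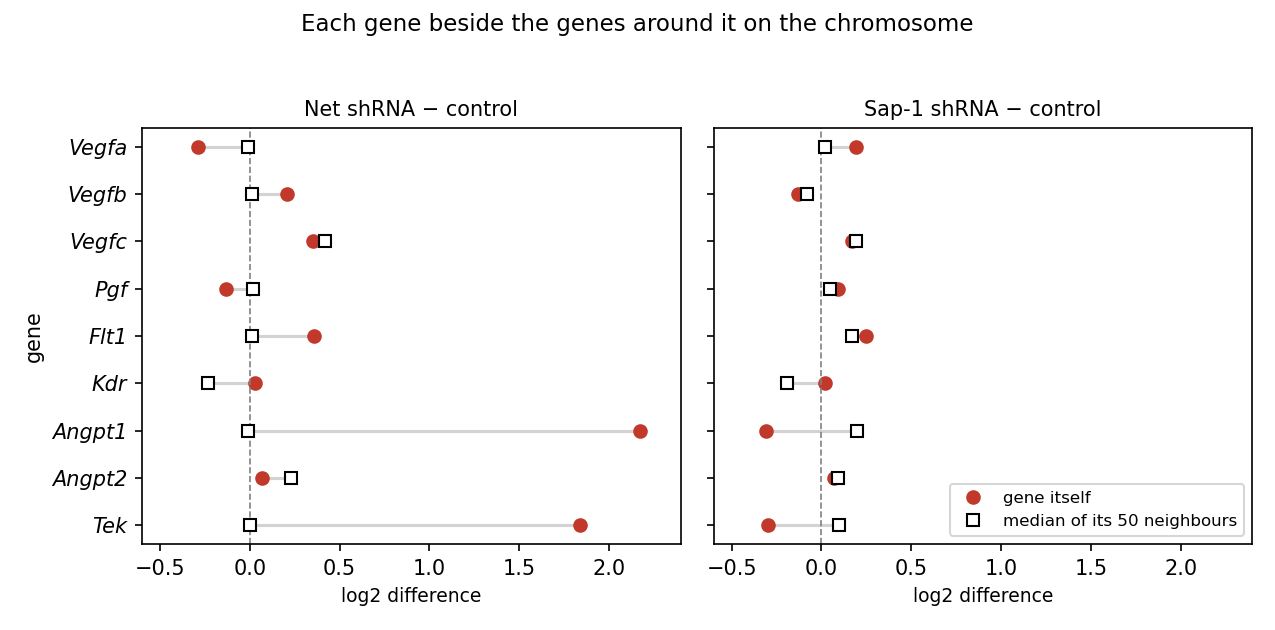
Log2 difference from control of each gene (filled circles) and the median of its 50 nearest neighbours (open squares), for NetKD and SapKD cells. Neighbours were the nearest genes on the chromosome with a level above the median of all genes. The neighbours of Vegfc were at 0.42 in NetKD cells, beyond Vegfc itself at 0.35, whereas those of Angpt1 and Tek were at -0.01 and 0.

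The genes around Angpt1 and Tek did not share their rise. In NetKD cells the neighbours' median was -0.01 for Angpt1 and 0 for Tek. Angpt2, which lies on the same chromosome as Vegfc, had neighbours up by 0.23 in NetKD cells while Angpt2 itself was at 0.07. In SapKD cells the neighbours of Angpt1 were up by 0.20 and those of Tek by 0.10, while both genes were lower than control.

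The promoters of the receptor genes and of Vegfa are shown because an ETS factor was targeted and these genes differ in how they moved: Tek and Flt1 higher, Kdr not called and Vegfa lower in NetKD cells. RefSeq windows (GRCm38.p6) were matched for 7 of the 9 genes, reaching from 250 bases before the annotated start to 50 after it, and where a gene had more than 1 window the one farthest upstream was used. The 250 bases before the start are printed 5′ to 3′ on the gene's strand, and capitals mark the ETS core GGAA on either strand (TTCC is its reverse complement). They lie at chr4:94739039-94739288 on the plus strand for Tek, and on the minus strand at chr5:147726012-147726261 for Flt1, chr5:75978456-75978705 for Kdr and chr17:46032378-46032627 for Vegfa.
Tek: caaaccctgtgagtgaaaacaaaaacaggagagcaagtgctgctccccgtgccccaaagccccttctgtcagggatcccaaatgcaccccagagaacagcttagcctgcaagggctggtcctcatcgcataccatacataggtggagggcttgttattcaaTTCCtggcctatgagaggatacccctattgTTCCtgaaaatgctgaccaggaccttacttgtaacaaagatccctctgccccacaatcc
Flt1: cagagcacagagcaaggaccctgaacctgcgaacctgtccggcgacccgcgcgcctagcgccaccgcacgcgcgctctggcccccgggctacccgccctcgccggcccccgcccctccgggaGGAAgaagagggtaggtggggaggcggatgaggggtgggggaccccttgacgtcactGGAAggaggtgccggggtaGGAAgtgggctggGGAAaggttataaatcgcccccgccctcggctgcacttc
Kdr: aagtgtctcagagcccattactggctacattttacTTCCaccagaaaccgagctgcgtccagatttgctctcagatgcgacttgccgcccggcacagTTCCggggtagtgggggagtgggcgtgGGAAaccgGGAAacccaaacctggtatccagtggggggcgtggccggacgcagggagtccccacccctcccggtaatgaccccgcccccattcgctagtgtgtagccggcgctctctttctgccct
Vegfa: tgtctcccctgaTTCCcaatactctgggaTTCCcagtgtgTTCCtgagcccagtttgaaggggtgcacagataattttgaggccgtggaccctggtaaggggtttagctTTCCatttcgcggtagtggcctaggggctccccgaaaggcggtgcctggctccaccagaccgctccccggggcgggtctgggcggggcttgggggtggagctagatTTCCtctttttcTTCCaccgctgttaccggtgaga

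In these windows the Tek promoter held 2 GGAA matches, Flt1 4, Kdr 5 (4 of them in the printed part) and Vegfa 6, and those of Vegfb, Vegfc and Pgf held 2 each. A match to GGAA occurs in 96% of the 32851 promoter windows of the RefSeq table, with a median of 3, so its presence sets none of these genes apart. The longer ETS site CCGGAA, which contains the core, was found once, in Kdr, and in 14.9% of all windows. The hypoxia response core ACGTG (19.6% of all windows) and the SRF CArG box (1.6%) matched in none of the 7 windows. Both strands were searched, and for these 7 genes sequence outside the windows, such as farther upstream, was not. A match is a match of letters and was not tested as a binding site.

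Of 13 further family members and co-receptors, 11 were measured, and 1 rose and 2 fell in NetKD cells, 3 rose and 2 fell in SapKD cells (list medians of -0.05 in both). Among all genes tested, 23.6% were called in NetKD cells and 29.7% in SapKD cells. Nrp2, a neuropilin co-receptor for VEGF, rose by 0.50 in NetKD (SE 0.07, limma adjusted p = 0.000257) and by 0.76 in SapKD cells (SE 0.07, adjusted p = 6.76e-06). Nrp1, the neuropilin that pairs with VEGFR2, rose by 0.33 in SapKD cells (SE 0.06, adjusted p = 0.00123) and lay at -0.14 in NetKD cells (adjusted p = 0.113). The Nrp1 difference in NetKD cells passed after quantile normalization (-0.17, adjusted p = 0.0347) and relative to its neighbours (-0.33, adjusted p = 0.00306). Both neuropilin genes were lower in NetKD than in SapKD cells (-0.47, adjusted p = 9.96e-05, for Nrp1 and -0.26, adjusted p = 0.0125, for Nrp2). The Nrp2 difference between the lines became 0.03 once its neighbours' median was subtracted (adjusted p = 0.727) and missed the threshold without SapKD replicate 3 (-0.22, adjusted p = 0.0544). Vegfd, the other ligand of the lymphatic receptor VEGFR3, fell by 0.20 in SapKD cells (SE 0.04, adjusted p = 0.00279) and lay at -0.10 in NetKD cells (adjusted p = 0.122), where it passed after quantile normalization (-0.12, adjusted p = 0.0266). Between the lines Vegfd did not pass (0.11, adjusted p = 0.0832), but did in 5 settings (0.11 to 0.15, adjusted p = 0.0254 to 0.0482).

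Among the angiopoietin-like genes, whose products are relatives that do not act as Tie2 ligands in the classical way, Angptl6 went opposite ways. It fell by 0.29 in NetKD (adjusted p = 0.00622) and rose by 0.45 in SapKD cells (limma adjusted p = 0.000253), and the direct difference was -0.74 (SE 0.06, adjusted p = 5.91e-06). Angptl7 fell by 0.29 and 0.30 (adjusted p = 0.0253 and 0.0153), calls lost without control replicate 2 (-0.20 and -0.21), without NetKD replicate 3 (-0.24) and without SapKD replicate 3 (-0.24) in the line concerned. Relative to its neighbours Angptl7 stood at -0.03 in NetKD cells (adjusted p = 0.849). Angpt4 (-0.10 and -0.04), Angptl1 (0.04 and -0.09), Angptl4 (-0.05 in both), the VEGFR3 gene Flt4 (-0.04 and -0.15), the orphan receptor gene Tie1 (-0.03 and -0.05) and Ptprb (-0.01 and 0), the gene of a phosphatase that restrains Tie2, passed in neither line. Ptprb read 6.66 on every array but NetKD replicate 2 (6.63), and whether so flat a signal can register a change was not tested. Flt4 passed in SapKD cells with the replicate number as a block (-0.15, adjusted p = 0.0239) and without SapKD replicate 1 (-0.20, adjusted p = 0.0409).

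**Figure D4:**
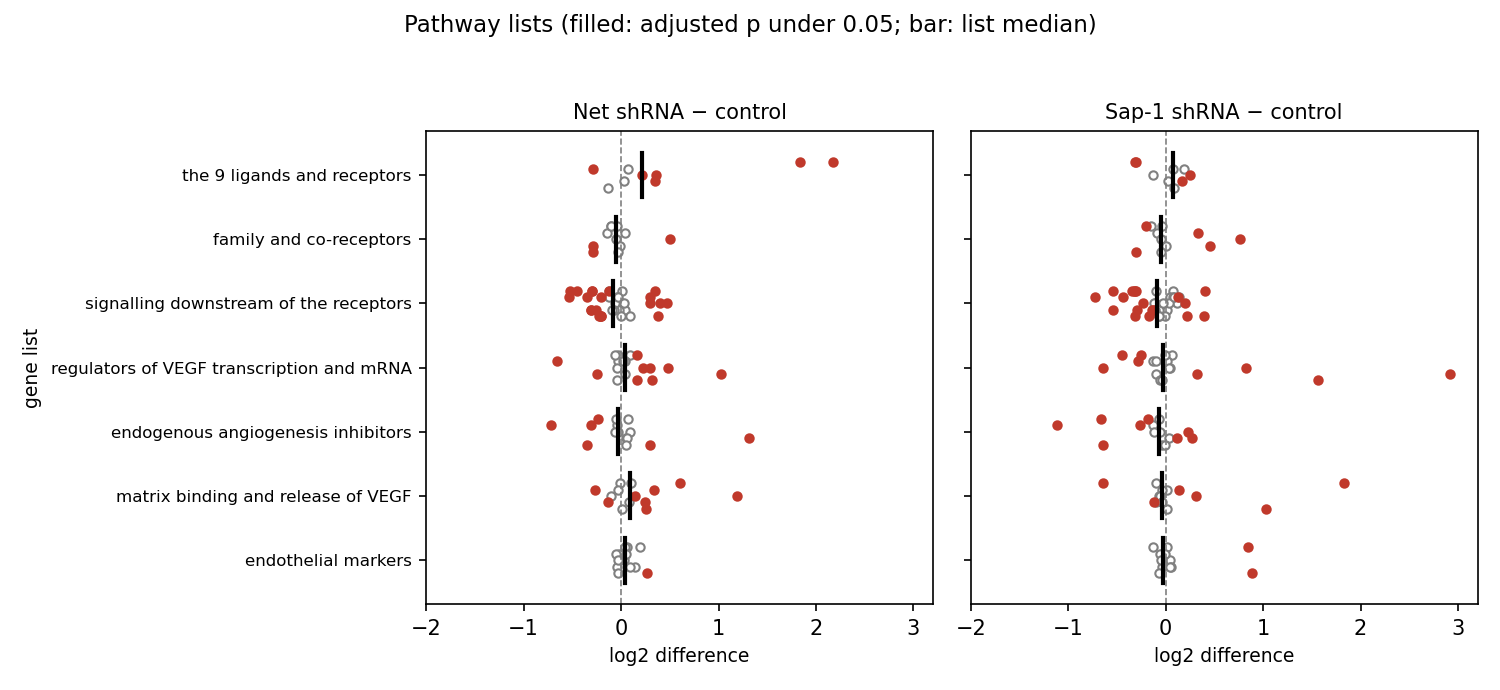
Log2 difference from control of every measured gene of the pathway lists and of the endothelial marker list, filled where adjusted p was under 0.05, with the list median as a bar. List medians lie between -0.09 and 0.21 in both panels, and the highest gene is Angpt1 at 2.17 in NetKD and Ppargc1a at 2.92 in SapKD cells.

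Of 36 measured genes that act downstream of the receptors, 6 rose and 15 fell in NetKD cells, with a list median of -0.08 beside 0 for all genes. Among all genes, 13.4% were called higher and 10.2% lower in NetKD cells. Nfatc4, a calcineurin-regulated transcription factor gene, fell by 0.53, and the kinase gene Yes1 by 0.52. Ppp3ca, a catalytic subunit of calcineurin, rose by 0.47 and the adaptor gene Nck1 by 0.38 (SE 0.05 to 0.06, limma adjusted p at most 0.000168). In SapKD cells 5 rose and 14 fell, with a median of -0.09 beside -0.02 for all genes, of which 15.8% were called higher and 13.9% lower. There Nfatc4 fell by 0.73, the adaptor gene Shc1 by 0.54, the transcription factor gene Foxo1 by 0.54 and the phospholipase gene Plcg1 by 0.44 (SE 0.04 to 0.07, adjusted p at most 0.000138). Between the lines 10 were higher and 9 lower in NetKD cells, beside 14.2% of all genes called higher and 13.3% lower. The 4 with the smallest adjusted p were Ppp3ca (0.58) and Shc1 (0.42) on the higher side and the kinase genes Fyn (-0.59) and Map2k1 (-0.52) on the lower.

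Of 18 genes that regulate VEGF transcription or mRNA, 7 rose and 2 fell in NetKD cells (list median 0.04), where 23.6% of all genes were called. Ppargc1a, a coactivator gene known to raise Vegfa in muscle, rose by 1.03 and Zfp36l1, whose product promotes decay of Vegfa mRNA, by 0.48. Egln1, the gene of an oxygen-sensing prolyl hydroxylase, rose by 0.30, and Arnt2, a partner of the hypoxia-inducible factors, fell by 0.66 (SE 0.05 to 0.06, limma adjusted p at most 0.00129). In SapKD cells 4 rose and 4 fell (median -0.03), where 29.7% of all genes were called. There Ppargc1a rose by 2.92, Egln3 by 1.56 and Egln1 by 0.82, while Zfp36l1 fell by 0.64 (adjusted p at most 9e-06). Egln3 was called higher in NetKD cells too, by 0.32 (adjusted p = 0.00209). Zfp36l1 was 1.13 higher in NetKD than in SapKD cells, while Ppargc1a (-1.88), Egln3 (-1.24) and the ETS factor gene Ets2 (-0.57) were lower. Between the lines the list had 5 higher and 5 lower, beside 27.5% of all genes called. Whether any of these genes bears on the level of Vegfa was not tested.

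Of 15 measured genes in the list of angiogenesis inhibitors, 2 rose and 4 fell in NetKD cells (list median -0.03) and 3 rose and 5 fell in SapKD cells (median -0.07). The shares called among all genes were 23.6% in NetKD, 29.7% in SapKD cells and 27.5% between the lines. Thbs2, the gene of thrombospondin-2, fell by 0.72 in NetKD and by 1.12 in SapKD cells, and the decorin gene Dcn by 0.24 and 0.66 (limma adjusted p at most 0.00123). Tnmd, the gene of tenomodulin, rose by 1.31 in NetKD cells (SE 0.07, adjusted p = 2.99e-07) and by 0.27 in SapKD cells (adjusted p = 0.0117). Timp3 rose by 0.23 in SapKD cells (adjusted p = 0.0022). Vash2, a vasohibin gene whose product is described as promoting rather than restraining vessel growth, fell by 0.35 and 0.64. Without Vash2 the list of 14 had 2 higher and 3 lower in NetKD cells (median 0.01) and 3 higher and 4 lower in SapKD cells (median -0.06). Between the lines 7 were higher, 6 without Vash2, and 1 lower in NetKD cells, Tnmd (1.04), Dcn (0.42) and Thbs2 (0.40) among the higher and Timp3 (-0.29) the lower one.

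Of 14 genes for matrix binding and release of VEGF, 6 rose and 2 fell in NetKD cells (list median 0.09) and 4 rose and 2 fell in SapKD cells (median -0.04). The shares called among all genes were 23.6% in NetKD, 29.7% in SapKD cells and 27.5% between the lines. The matrix protein gene Ecm1 rose by 1.19 and 0.31. Mmp9, a gelatinase gene linked to the release of matrix-bound VEGF, rose by 0.60 in NetKD and fell by 0.64 in SapKD cells, and the direct difference was 1.24 (SE 0.05, limma adjusted p = 8.15e-09). The protease genes Plau and Mmp2 rose by 0.34 and 0.25 in NetKD cells. Plau rose by 0.14 and Mmp2 fell by 0.12 in SapKD cells (adjusted p = 0.0455 and 0.0286). In SapKD cells the heparanase gene Hpse rose by 1.83 and the glypican gene Gpc1 by 1.03 (adjusted p at most 4.73e-08). Gpc1 was called higher in NetKD cells too, by 0.26 (adjusted p = 0.00214). Between the lines 5 were higher in NetKD cells and 2 lower, Ecm1 (0.88) among the higher and Hpse (-1.73) and Gpc1 (-0.77) the lower ones.

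Since Tek, Flt1 and Kdr are known from endothelial cells, markers of that and other cell types were read on the same arrays. In a culture measured in bulk, more cells of a type and more RNA per cell cannot be told apart. In NetKD cells 1 of 14 endothelial markers was called, Emcn (0.27, SE 0.07, limma adjusted p = 0.021), where 23.6% of all genes were called. The summed level of the list (log2 of the sum of linear values) was 10.79 to 10.89 per array against 10.77 to 10.81 in control. Pecam1 (-0.04), Cldn5 (-0.02), Vwf (0.09) and Erg (0.06) did not pass, nor did Cdh5 (0.19, adjusted p = 0.105). All NetKD arrays of Cdh5 and of Egfl7 (0.14, adjusted p = 0.0832) lay above all control arrays, where 34.3% of all genes had no overlap. In SapKD cells, where Tek was lower, Emcn and Cdh5 rose by 0.89 and 0.84 (adjusted p = 4.08e-06 and 9.61e-06). The other 12 did not pass, where 29.7% of all genes were called, and the summed level was 10.85 to 10.90. Mural cell markers summed to 11.03 to 11.13 in control, 10.87 to 10.97 in NetKD and 11.24 to 11.27 in SapKD cells. In each line 1 of 8 was higher, Cspg4 (0.29 in NetKD and 0.99 in SapKD), and 1 lower, Anpep (-1.36 and -1.78). The other 6 passed in neither line, beside 23.6% and 29.7% of all genes called. Macrophage and blood markers summed to 13.13 to 13.14, 13.27 to 13.32 and 12.51 to 12.54. Cd34 and Cd68 were higher in NetKD and lower in SapKD cells, 2 of 8 in each. Among all genes, 13.4% were called higher in NetKD and 13.9% lower in SapKD cells. Ptprc, which marks all blood leukocytes, stood at 5.98 to 6.22 over the 9 arrays. Cd34 alone made up 86.9% to 91.7% of the macrophage and blood sum over the groups, and without it the other 7 summed to 9.65 to 9.68, 9.72 to 9.85 and 9.54 to 9.61. Fibroblast markers summed to 16.40 to 16.42, 16.29 to 16.35 and 16.15 to 16.19. Of 10, 4 were lower in NetKD and 5 in SapKD cells, where 10.2% and 13.9% of all genes were called lower. Pdgfra (-1.74) and Dcn (-0.66) fell most in SapKD cells, and 5 of the 10 did not pass there. RMA levels have no true zero, so none of these markers is at 0. The part of other cells in the rise of Tek and Angpt1 was not tested.

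The genes most like each called one were found by the root mean square difference of gene-centred log2 levels over the 9 arrays, a description with no test, since all genes share the same arrays. For Angpt1 they were Ifit1 (0.168), Pde7b (0.171) and Tmem176a (0.173), and for Tek Tmem176a (0.15), Cxcl5 (0.15) and Fetub (0.172). Angpt1 and Tek differed by 0.178, and before any gene names were passed over each ranked 4 among the genes nearest to the other. For Flt1 they were Timm44 (0.026), Heatr3 (0.03) and Polr1b (0.031), and for Vegfc Wrap53 (0.034), Hint2 (0.036) and Colgalt1 (0.039). For Vegfa they were Plaur (0.054), Rpl22 (0.067) and Apobr (0.074), and for Vegfb Mthfsd (0.026), Znrd1 (0.028) and Nr2f6 (0.034).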

How the data were processed

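Total RNA from 9 NIH 3T3 cultures was measured on Affymetrix Mouse Gene 1.0 ST arrays, 1 per replicate. The deposited table holds log2 levels, and the submitters' processing notes name RMA and the program Affymetrix Expression Console. Version, settings and genome build are not given in the sources used here. RMA brings arrays to a common distribution and compresses folds of dim genes. Of 28815 probe sets, 21780 have a single symbol, updated by Entrez ID through a RefSeq table (GRCm38.p6, 21689 matched), and the highest probe set per gene left 19935 genes. That gene table gave names and neighbour order only, and promoter windows came from a separate RefSeq table.

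Groups were compared with limma 3.58.1 in R 4.3.3 (lmFit, eBayes, no trend) in a fit over all 9 arrays (6 residual and 4.7 prior degrees of freedom), with Benjamini-Hochberg adjustment over the 19935 genes. Genes were called at adjusted p under 0.05. The scripts were tested on simulated data. Arrays have no read depth, so their number limits precision.

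Members and lists were chosen with earlier results of these data known. Named are all members, targeted genes and measured family genes, up to 4 called genes of each other pathway list with the smallest adjusted p per comparison, and the 3 nearest profiles of each member called in a knockdown line, with predicted, small RNA and receptor cluster genes passed over. In the neighbour setting the median deviation of the 50 nearest genes above the median level was taken off per array. Other settings were the replicate block, trend with robust variances, 6 arrays, 3 normalizations, dim probe sets left out, means of probe sets, array weights and each array left out.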

Additional observations from a re-analysis of the deposited data

How the results depend on the processing

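Of 501 values of the 9 genes under other settings, 35 lost the call and 8 gained it. Of the 35, 3 also turned sign, namely Vegfc with its neighbours' median taken off, at -0.08 in NetKD, -0.02 in SapKD and -0.06 between the lines, and Nrp2 likewise turned to 0.03 between the lines. Values that were not called turned sign in 6 cases for Kdr and 2 for Angpt2 (-0.16 to -0.01), none of them called, and Angpt2 between the lines, at 0.00, lay on both sides (-0.14 to 0.09). The genes called among the 9 numbered 5 to 6 in NetKD, 2 to 4 in SapKD and 5 to 6 between the lines with 1 array left out, and 5 to 7, 3 to 4 and 4 to 6 under the other settings. With dim probe sets left out, 5 of the 9 were tested at all. Over all genes the calls ranged from 3848 to 5332, 5043 to 6773 and 4770 to 6294. With each array centred on its median, 42.1% of the genes called between the lines were higher in NetKD cells against 51.5%, and 49.8% against 56.9% for NetKD and control. Of 1026 counts of pathway and marker lists, 84 moved by over 1.5 times or between none and some, mostly counts of a few genes.

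Same-numbered arrays of different groups did not all deviate together (correlations of -0.11 to 0.36, over 0.1 in 5 of 9 pairs, and not every array correlated best with its own number). With the replicate block 6, 4 and 6 of the 9 genes were called, and 4985, 6263 and 5752 genes in all. Among the genes named with the 9, the block changed 1 call, that of Flt4 in SapKD cells (-0.15). The table holds no detection calls, so how far Kdr, Pgf and other faint genes lie above background is unknown, and 3 arrays a group limit the precision of small differences.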
